A study of Mus musculus with 6 samples.

Results

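The 35 genes described here encode the enzymes of glycolysis and the proteins that set its rate and the fate of pyruvate, together with the alpha subunits of both main hypoxia-inducible factors. They were chosen by name from the pathway, and their probes were found through the RefSeq accession of each probe. All 35 had a probe, 61 in total, among 22911 named genes on the array. A probe was compared if the scanner software called it well above background on every array of VECs, of LECs or of both. This left 31 of the 35 genes, and 30 of these were well above background on all 6 arrays. Hk2, Pklr, Fbp1 and Fbp2 were not compared.

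Glycolysis splits glucose into pyruvate in the cytosol and yields a small amount of ATP without oxygen. Pyruvate is then reduced to lactate by lactate dehydrogenase, or enters mitochondria, where the pyruvate dehydrogenase complex turns it into acetyl-CoA; pyruvate dehydrogenase kinases switch that complex off. Endothelial cells of blood vessels are known for a high rate of glycolysis, which Pfkfb3 promotes during vessel sprouting, and lymphatic endothelial cells are known to depend also on the oxidation of fatty acids in their mitochondria. Under low oxygen the hypoxia-inducible factors switch on many genes of glycolysis, lactate production and pyruvate dehydrogenase kinase.

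The cells came from the small intestine of female mice, with no age, strain or treatment in the sample labels. VECs, the vascular endothelial cells, and LECs, the lymphatic endothelial cells, were sorted from CD45-negative, CD31-positive cells by CD90, which VECs lack and LECs carry. At most 10000 cells were sorted per sample, and 3 samples of each population, VEC 2, 3 and 4 and LEC 6, 7 and 8, were each hybridized to 1 single-color Agilent array. The description of the LEC samples names VECs, whereas their titles and sources give LECs, and the titles were followed. Nothing in the labels or methods says that the samples of a population came from separate mice, so the p-values measure the spread between these samples, which may be technical. Sorted endothelial cells of a population are a mixture of vessel types, and less RNA per cell cannot be told apart from fewer cells with that RNA.

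Between 30930 and 35510 of 56605 probes were well above background per array, and no spot was saturated. All 6 arrays shared 1 slide and 1 scan time; the VEC arrays and LEC 6 lay in slide row 1, and LEC 7 and 8 in slide row 2. The markers matched the labels: all 6 lymphatic genes, such as Mmrn1 and Ccl21a, were higher in LECs, with a summed signal of 1130 to 1180 times the array's 75th percentile against 2.68 to 3.34 in VECs. All 6 blood vascular genes, such as Plvap and Flt1, were lower in LECs (33 to 44.1 against 1400 to 1530). Markers of other cells were also measured. The enteric neuron and glia list was brighter in VECs as a sum (13.4 to 14 against 4.98 to 6.35), a sum made up mostly by Uchl1, while 5 of its 8 genes, among them the glial gene S100b, were higher in LECs. The erythroid sum was 12.6 to 30.2 in VECs and 0.379 to 1.81 in LECs, nearly all of it Hba-a1. The epithelial sum, made up mostly by Lgals4, was 2.99 to 3.94 in VECs and 5.66 to 7.02 in LECs. Of the 4 compared genes of that list, Lgals4 (2.26-fold) and Fabp2 (5.43-fold) were higher in LECs and Vil1 (4.17-fold) was lower. Krt20, Alpi, Sis and Cdx1 were not well above background on any array. The fibroblast sum was 0.356 to 0.668 in VECs and 1.28 to 1.75 in LECs, and all 3 compared genes of that list, Dcn (6.33-fold), Col3a1 (2.78-fold) and Col1a1 (1.67-fold), were higher in LECs. The part of these other cells in the results below was not tested, except where a value is given beside a gene.

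Of the 31 genes compared, 16 were lower and 5 higher in LECs than in VECs (limma, Benjamini-Hochberg adjusted p under 0.05 over all 33776 compared probes), and 10 did not pass. The populations differed so widely that 66.9% of all 14971 named genes passed, 34.9% higher and 32.0% lower in LECs, so the share of glycolytic genes that passed, 67.7%, lay near this background. Their direction was less even, with a median difference of -0.29 on the log2 scale (LEC minus VEC) against 0.02 for all named genes. At least 2-fold differences were seen for 6 genes lower in LECs (Epas1, Ldha, Pfkl, Pdk3, Hif1a and Eno3; background 13.1%) and 1 gene higher (Aldoc; background 12.0%). In 17 genes every VEC array lay above every LEC array (background 35.9%), in 8 genes every LEC array lay above every VEC array (background 39.1%), and in 6 genes the arrays overlapped. Under 19 other ways of processing the data, 12 of the 16 lower genes and 2 of the 5 higher genes passed every time. The 12 were Hk1, Pfkl, Pfkm, Pfkp, Pfkfb4, Gapdh, Eno3, Ldha, Pdk1, Pdk3, Hif1a and Epas1, and the 2 were Aldoc and Pdha1. Slide row 2 held only LEC arrays, so a fit with the slide row as a blocking factor set LEC 6 alone against the VEC arrays. That fit is among the 19. It compares the populations within slide row 1 only, with 1 LEC array, so its counts are not given.

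Signals below are log2 values of a probe relative to the 75th percentile of its array, so that 0 is a signal equal to that percentile. A difference is the LEC mean minus the VEC mean on the log2 scale, with its standard error, n = 3 arrays per population, and an adjusted p from limma. Levels of different genes were not compared, because probes differ in how strongly they bind.

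**Figure D1:**
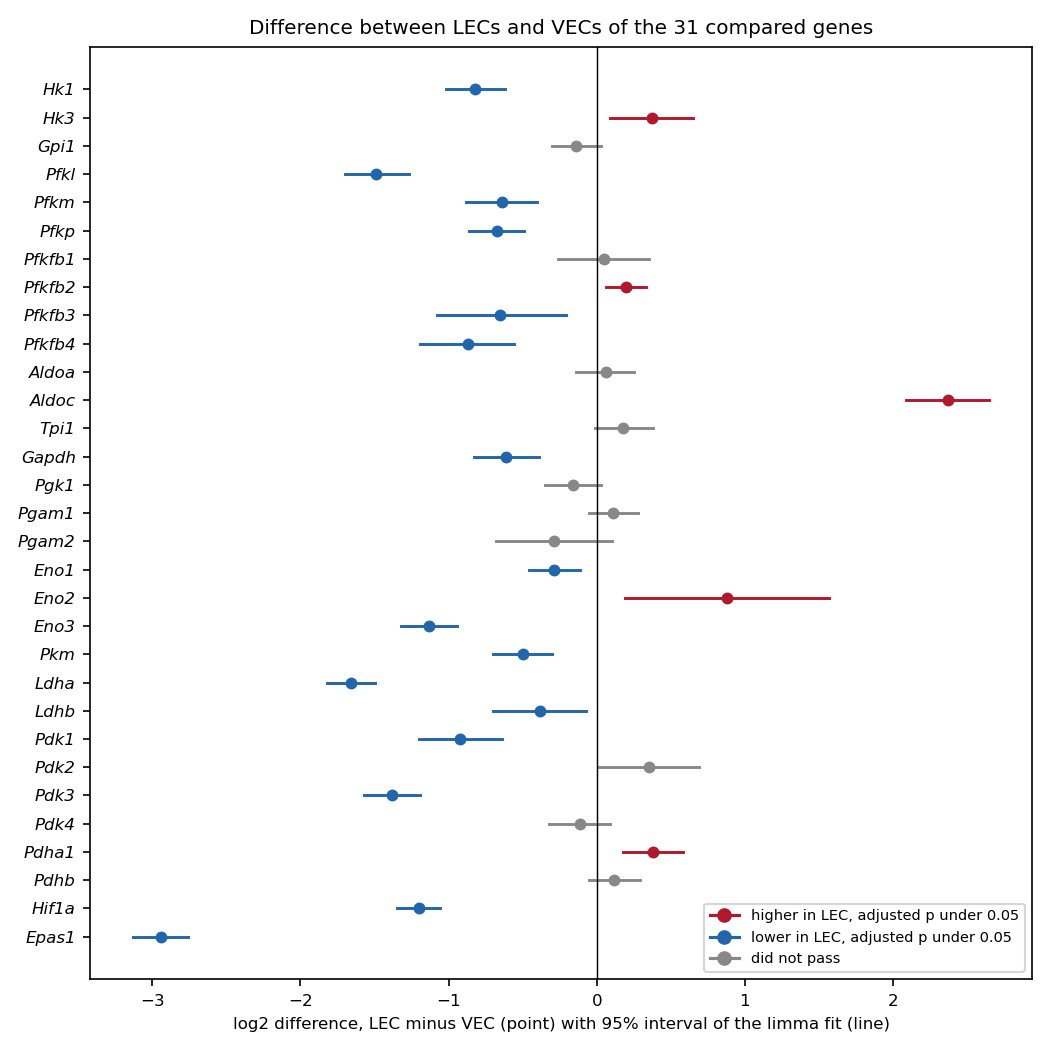
Difference between LECs and VECs (log2, LEC minus VEC) of each of the 31 genes compared, in the order of the pathway. Points are the fitted difference and bars its 95% confidence interval, in blue where lower, red where higher in LECs and gray where the gene did not pass; 16 genes lie below 0 and 5 above 0 with an adjusted p under 0.05, from -2.94 for Epas1 to 2.37 for Aldoc.

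Glucose is trapped in the cell by hexokinases. Hk1, the widely expressed hexokinase of the mitochondrial surface, had signals of 4.52, 4.34 and 4.29 in VECs and of 3.57, 3.55 and 3.58 in LECs. The populations did not overlap, and Hk1 was 1.76-fold lower in LECs (difference -0.82, SE 0.080, adjusted p = 0.00028). Hk3, a hexokinase best known from leukocytes, had signals of -1.84, -2.07 and -1.89 in VECs and of -1.66, -1.67 and -1.36 in LECs, and was 1.29-fold higher in LECs (difference 0.37, SE 0.11, adjusted p = 0.029). That call was lost without VEC 3, VEC 4 or LEC 8, with adjusted p of 0.092, 0.054 and 0.066. Of 9 compared leukocyte markers, 5 had higher signals in LECs, such as Fcer1g (3.50-fold) and Tyrobp (2.97-fold), and 3 had lower ones. The share that passed was 88.9%, against 66.9% of all named genes, and the median difference was 1.57. The signal summed over all 13 markers, made up mostly by Itgam, was 80.2 to 85.9 in VECs and 71 to 76 in LECs, and the part of leukocytes in the Hk3 result was not tested. Hk2, the hexokinase that growth signals and low oxygen induce, was well above background on only 2 of 3 arrays in each population, at -4.50, -5.45 and -3.67 in VECs and -3.43, -4.60 and -3.11 in LECs. These ranges overlapped and Hk2 was not compared. Gpi1, which turns glucose 6-phosphate into fructose 6-phosphate, had signals of 6.03 to 6.14 in VECs and of 5.90 to 6.01 in LECs and did not pass (difference -0.14, interval -0.30 to 0.03, adjusted p = 0.12); its 2 further probes gave -0.13 and -0.18.

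Glucose reaches these enzymes through facilitated carriers, and lactate leaves through monocarboxylate carriers. All 4 genes of the list of carriers were lower in LECs, each at least 2-fold. Of all named genes, 32.0% passed as lower and 13.1% were at least 2-fold lower. Slc2a1, the carrier GLUT1 of blood vessel endothelium, had signals of 3.57, 3.55 and 3.47 in VECs and of 1.65, 1.38 and 1.63 in LECs, a 3.93-fold difference (-1.98, SE 0.092, adjusted p = 1.2e-05). Slc2a3, the high-affinity carrier GLUT3, was 10.5-fold lower in LECs (-3.40, SE 0.16, adjusted p = 1.4e-05). Slc16a1, the monocarboxylate carrier MCT1, showed the widest gap, with 2.50, 2.52 and 2.09 in VECs against -2.73, -3.29 and -3.02 in LECs, which is 41.8-fold (-5.39, SE 0.18, adjusted p = 3.6e-06). Slc16a3, the lactate exporter MCT4, was 2.72-fold lower in LECs (-1.44, SE 0.12, adjusted p = 0.00016). All 4 passed under every alternative, but with normexp background correction the differences of Slc16a1 and Slc2a3 were -4.24 and -2.33. The median difference of the carriers was -2.69 on the log2 scale.

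Phosphofructokinase commits sugar to glycolysis, and 3 genes encode its subunits, named after liver, muscle and platelets. All 3 were lower in LECs. Pfkl, the liver type, had signals of 0.94, 0.85 and 1.0 in VECs and of -0.42, -0.67 and -0.57 in LECs, 2.80-fold lower (-1.49, SE 0.089, adjusted p = 3.3e-05). Pfkm, the muscle type, had 1.56, 1.56 and 1.34 against 0.96, 0.74 and 0.83, 1.56-fold lower (-0.64, SE 0.097, adjusted p = 0.0017). Pfkp, the platelet type, had 2.73, 2.72 and 2.58 against 1.94, 2.07 and 2.0, 1.60-fold lower (-0.67, SE 0.074, adjusted p = 0.00043), and a second probe gave -0.69. In no subunit did an LEC array reach a VEC array. Of all named genes, 32.0% passed as lower in LECs, and 35.9% had every VEC array above every LEC array. Within each array, the log2 ratio of Pfkl to Pfkp was -1.79, -1.87 and -1.58 in VECs and -2.36, -2.74 and -2.57 in LECs, a difference of -0.81 on the log2 scale with no overlap. An exact two-sided permutation test over the 6 arrays gave p = 0.1, the smallest that 3 against 3 arrays allow, and an adjusted p of 0.133 over the 8 pairs of genes compared in this way. The ratio of Pfkm to Pfkp differed by 0.04 (exact permutation p = 0.9).

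Phosphofructokinase is activated by fructose 2,6-bisphosphate, which the 4 bifunctional Pfkfb enzymes make and break. Pfkfb3, the form that favors synthesis, had signals of 4.20, 4.26 and 4.36 in VECs and of 3.26, 3.97 and 3.65 in LECs. It was 1.57-fold lower in LECs (-0.65, SE 0.18, adjusted p = 0.020), and a second probe gave -0.81 (adjusted p = 0.024). LEC 6 and LEC 7 stood furthest apart, and the call was lost without VEC 3 (adjusted p = 0.055), VEC 4 (0.061) or LEC 8 (0.052). Pfkfb4, which low oxygen induces in many cells, had -1.16, -1.20 and -1.50 in VECs and -2.35, -2.08 and -2.04 in LECs, 1.83-fold lower (-0.87, SE 0.13, adjusted p = 0.0016). Pfkfb2, the form best known from heart, was 1.15-fold higher in LECs by its brightest probe (0.20, SE 0.055, adjusted p = 0.021), with VEC arrays at 0.08 to 0.12 and LEC arrays at 0.29 to 0.31. Its other 2 probes gave 0.83 (adjusted p = 0.00060) and 0.23 (adjusted p = 0.25), and the call of the brightest probe was lost without VEC 2, VEC 3, LEC 7 or LEC 8, with adjusted p of 0.053 to 0.082. Pfkfb1, the liver form, did not pass (0.05, interval -0.26 to 0.35). The ratio of Pfkfb3 to Pfkfb4 overlapped between the populations, with a difference of 0.23 (exact permutation p = 0.4).

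**Figure D2:**
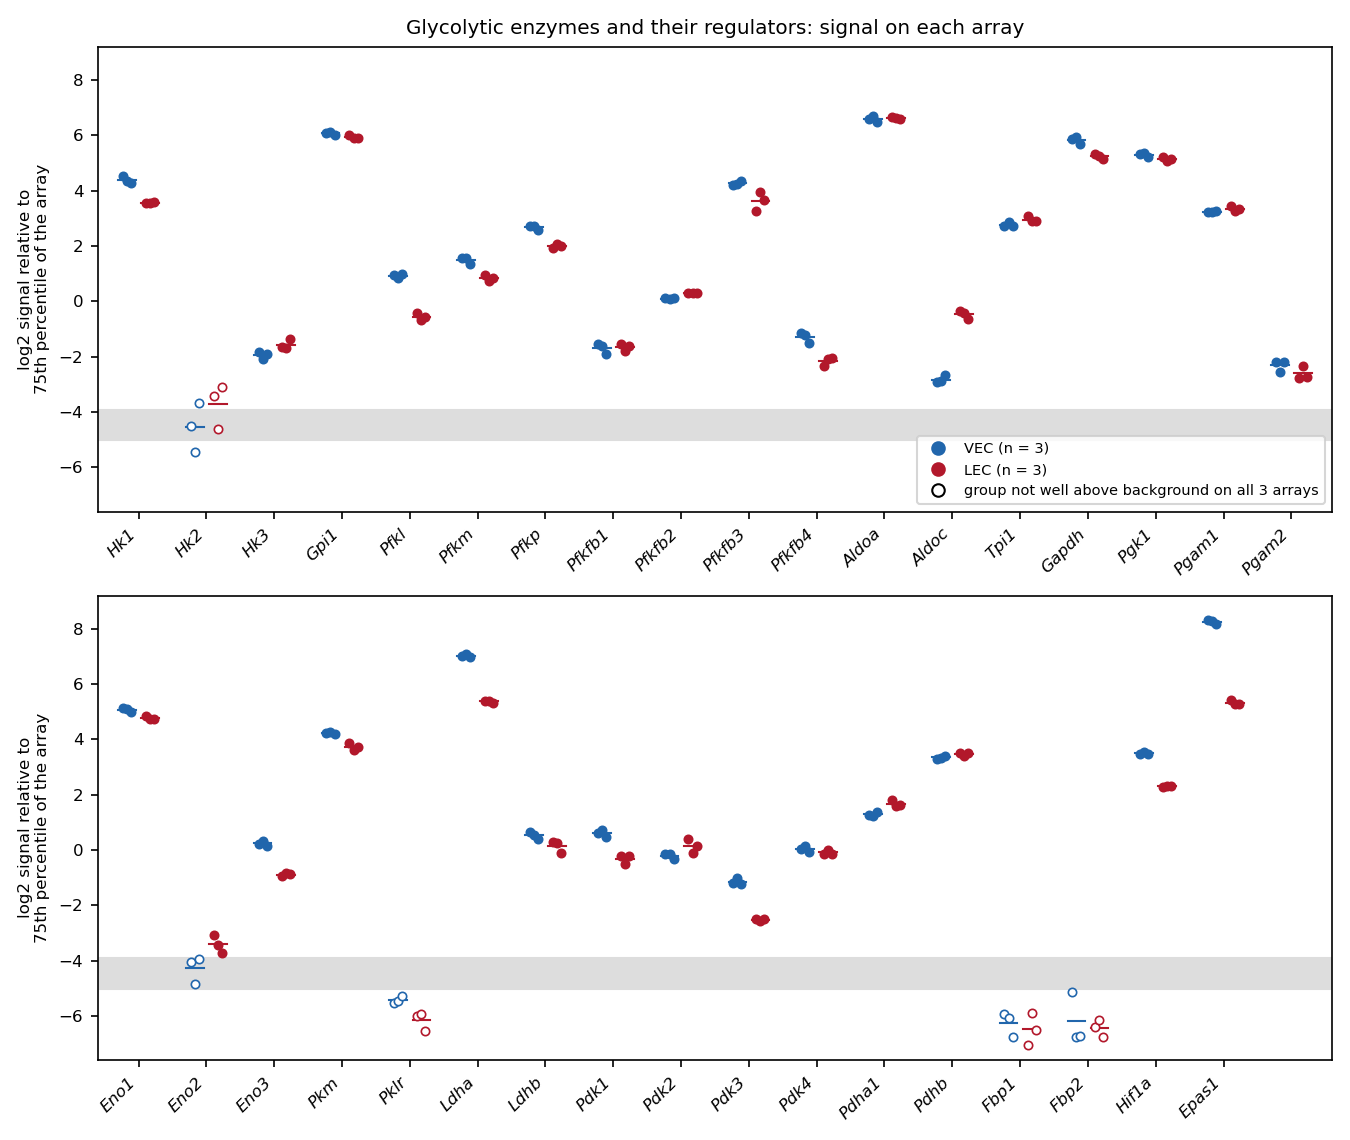
Log2 signal relative to the array's 75th percentile on each of the 3 VEC and 3 LEC arrays, for all 35 genes. Each point is 1 array (blue VEC, red LEC; open where the population was not well above background on all 3 arrays), each short line a mean, and the gray band the range over arrays of the lowest signal well above background; VEC points lie above LEC points for Ldha, Pfkl, Eno3 and Pdk3, and LEC points above VEC points for Aldoc.

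Aldolase cuts fructose 1,6-bisphosphate into triose phosphates. Aldoa, the main form in most tissues, had 6.58, 6.69 and 6.47 in VECs and 6.68, 6.62 and 6.60 in LECs; the arrays overlapped and the difference did not pass (0.06, interval -0.14 to 0.25, adjusted p = 0.56). Aldoc, a form best known from brain, was the gene of the pathway with the largest excess in LECs. Its signals were -2.93, -2.88 and -2.67 in VECs and -0.33, -0.41 and -0.64 in LECs, 5.16-fold higher (2.37, SE 0.11, adjusted p = 1.4e-05), with a difference of 1.51 under normexp background correction. A second, dimmer probe was well above background on all 3 LEC arrays and on 0 of 3 VEC arrays and put LECs at least 4.06-fold higher (adjusted p = 4.5e-05). The ratio of Aldoa to Aldoc was 9.50, 9.58 and 9.14 in VECs and 7.01, 7.03 and 7.25 in LECs, a difference of -2.31 (exact permutation p = 0.1). Glial genes moved with Aldoc: S100b was 15.5-fold and Sox10 4.25-fold higher in LECs (log2 differences of 3.96 and 2.09, and of 2.48 and 0.97 with normexp), while among the neuronal genes Uchl1 was 6.75-fold lower, and their part in the Aldoc result was not tested. Tpi1, which interconverts the triose phosphates, did not pass (0.18, interval -0.01 to 0.38, adjusted p = 0.091), with signals of 2.73 to 2.87 in VECs and of 2.90 to 3.07 in LECs that did not overlap.

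The lower steps recover ATP, and of their 8 compared genes 4 were lower and 1 higher in LECs. This share of 62.5% lay near the 66.9% of all named genes that passed. Gapdh, which is often used as a reference gene, had 5.88, 5.96 and 5.70 in VECs and 5.32, 5.24 and 5.16 in LECs, 1.52-fold lower (-0.61, SE 0.091, adjusted p = 0.0017), and its 6 probes gave -0.49 to -0.66. Pgk1, which makes the first ATP, and Pgam1, the main phosphoglycerate mutase, did not pass, with differences of -0.16 (interval -0.35 to 0.03) and 0.11 (interval -0.05 to 0.28). Pgam2, the muscle mutase, did not pass either (-0.29, interval -0.68 to 0.10).

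The 3 enolase genes did not move together. Eno1, the widely expressed enolase, was 1.22-fold lower in LECs (-0.29, SE 0.071, adjusted p = 0.013), with VEC arrays at 5.12, 5.08 and 4.98 and LEC arrays at 4.84, 4.72 and 4.75; the call was lost without VEC 2 or VEC 3 (adjusted p of 0.054 and 0.050) and without scaling between arrays (0.69). Eno3, the muscle enolase, had 0.22, 0.34 and 0.15 in VECs and -0.96, -0.85 and -0.87 in LECs, 2.19-fold lower (-1.13, SE 0.076, adjusted p = 5.6e-05). Summed smooth muscle and pericyte markers were 46.6 to 57 in VECs and 34.3 to 44.8 in LECs. Of these 8 markers, 3 passed as lower (37.5%, against 32.0% of all named genes) and 5 did not pass. Without scaling between arrays 0 passed as lower. The part of these cells in the Eno3 result was not tested. Eno2, the neuronal enolase, was dim, at -4.07, -4.85 and -3.94 in VECs, where 2 of 3 arrays were well above background, and at -3.07, -3.45 and -3.71 in LECs. Its difference was 0.88 (SE 0.28, adjusted p = 0.035), but 0.02 with another background correction, and the call was lost without VEC 2, VEC 3, LEC 6 or LEC 7 (adjusted p of 0.052 to 0.10). The value for Eno2 thus rests on signals near background. The ratio of Eno1 to Eno2 differed by -1.17 between the populations (exact permutation p = 0.1). Pkm, the pyruvate kinase of most tissues, had 4.22, 4.27 and 4.19 in VECs and 3.85, 3.61 and 3.71 in LECs, 1.42-fold lower (-0.50, SE 0.082, adjusted p = 0.0024), a call that was lost without scaling between arrays (adjusted p = 0.12). Its splice forms were not told apart. On no array was Pklr, the pyruvate kinase of liver and red cells, well above background.

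Lactate dehydrogenase decides whether pyruvate becomes lactate. Ldha, the subunit that favors lactate production, had 7.03, 7.09 and 6.97 in VECs and 5.40, 5.40 and 5.32 in LECs. All VEC arrays lay far above all LEC arrays, and Ldha was 3.16-fold lower in LECs (-1.66, SE 0.065, adjusted p = 6.1e-06), with -1.96 from a second probe. Ldhb, the subunit of heart that favors the reverse reaction, had 0.64, 0.54 and 0.41 against 0.30, 0.24 and -0.11, 1.30-fold lower (-0.38, SE 0.13, adjusted p = 0.041). A second Ldhb probe overlapped between the populations and did not pass (-0.36, adjusted p = 0.067). The call for Ldhb by its brightest probe was lost without VEC 2, VEC 3, LEC 7 or LEC 8, with adjusted p of 0.061 to 0.12, and without scaling between arrays (0.35). Within arrays, the log2 ratio of Ldha to Ldhb was 6.39, 6.55 and 6.57 in VECs and 5.09, 5.16 and 5.42 in LECs, a difference of -1.28 with no overlap (exact permutation p = 0.1, adjusted p = 0.133). The carriers of lactate described above, Slc16a1 and Slc16a3, were lower in LECs as well.

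Entry of pyruvate into mitochondrial oxidation is set by the pyruvate dehydrogenase complex and its kinases. Among the 4 kinases, which switch the complex off, Pdk1 and Pdk3 were lower in LECs. Pdk1 had 0.62, 0.72 and 0.45 in VECs and -0.22, -0.52 and -0.23 in LECs, 1.89-fold lower (-0.92, SE 0.12, adjusted p = 0.00080), and its 4 probes gave -0.40 to -1.30. Pdk3 had -1.18, -1.02 and -1.23 in VECs and -2.49, -2.56 and -2.50 in LECs, 2.60-fold lower (-1.38, SE 0.077, adjusted p = 2.6e-05). No LEC array reached a VEC array for either kinase. The same held for 35.9% of all named genes, and 32.0% passed as lower. Pdk2, the kinase with the widest expression, had -0.13, -0.15 and -0.33 in VECs and 0.39, -0.10 and 0.16 in LECs and did not pass (0.35, interval 0.01 to 0.69, adjusted p = 0.070); it passed under 5 of 19 alternatives. Pdk4, which fasting and fatty acids induce, did not pass (-0.11, interval -0.32 to 0.09, adjusted p = 0.27). The log2 ratio of Pdk1 to Pdk2 was 0.75, 0.86 and 0.78 in VECs and -0.61, -0.41 and -0.39 in LECs, a difference of -1.27 (exact permutation p = 0.1, adjusted p = 0.133).

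Genes of the complex were measured beside its kinases. Pdha1, the catalytic subunit that the kinases phosphorylate, had 1.28, 1.24 and 1.38 in VECs and 1.80, 1.60 and 1.63 in LECs, 1.30-fold higher (0.38, SE 0.082, adjusted p = 0.0075). Pdhb, its partner, did not pass (0.12, interval -0.05 to 0.29). Of the 8 other genes of the complex, its phosphatases and the mitochondrial pyruvate carrier, 6 passed as higher and 0 as lower in LECs, against 34.9% and 32.0% of all named genes, with a median difference of 0.49. Dlat, the acetyltransferase core, had -1.01, -1.03 and -1.07 in VECs and -0.32, -0.36 and -0.23 in LECs, 1.66-fold higher (0.73, SE 0.064, adjusted p = 0.00016). Pdp1, the phosphatase that switches the complex back on, was 1.59-fold higher (0.67, SE 0.099, adjusted p = 0.0015), and Mpc2, a subunit of the pyruvate carrier, 1.56-fold higher (0.64, SE 0.074, adjusted p = 0.00054). Pdpr, Pdhx and Dld were 1.43-fold, 1.38-fold and 1.20-fold higher, and Mpc1 (0.12) and Pdp2 (-0.15) did not pass. Over the 19 alternatives, 5 to 7 of the 8 were higher and 0 lower in LECs. These differences were below 2-fold throughout, and messenger RNA levels say nothing of the phosphorylation of the complex.

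**Figure D3:**
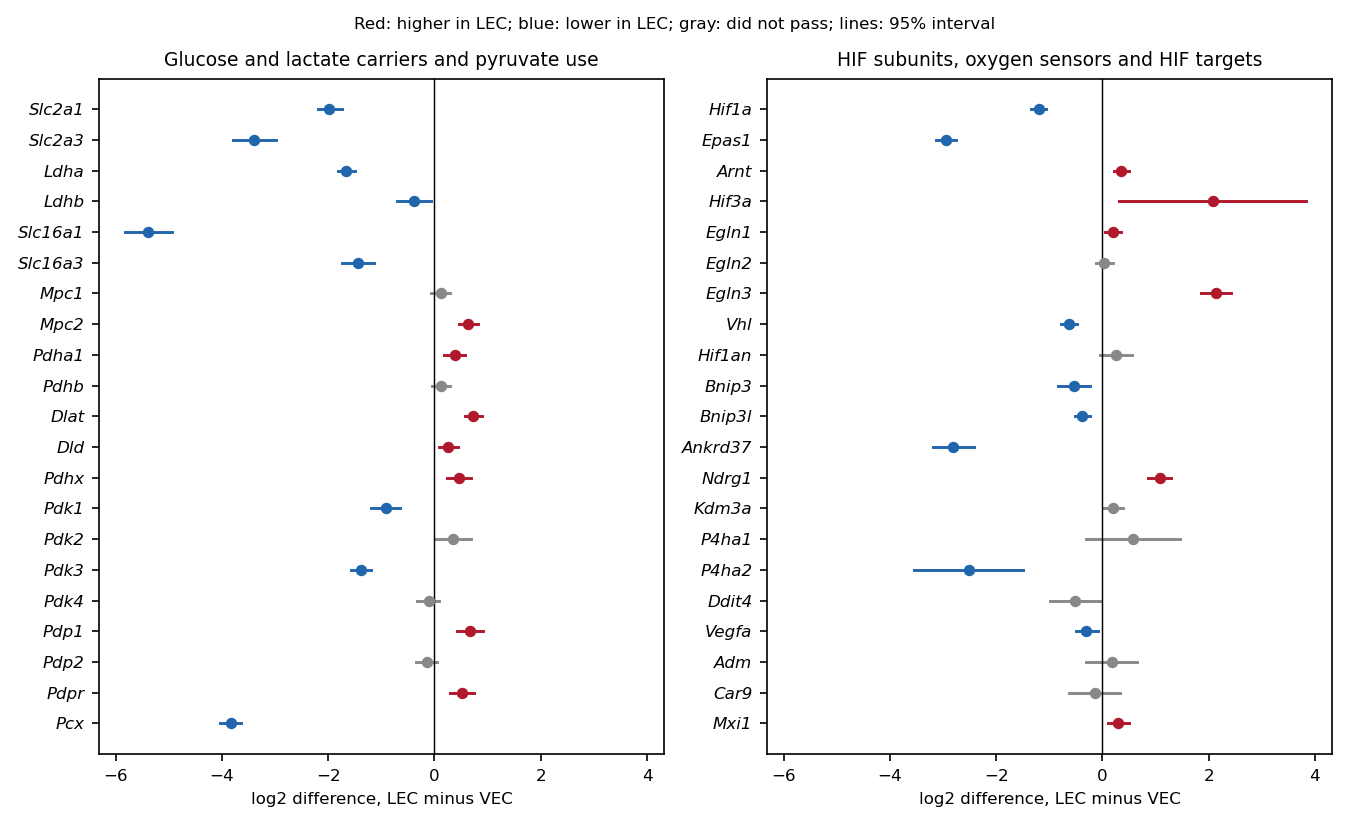
Difference between LECs and VECs (log2, LEC minus VEC) with its 95% interval, on the left for carriers of glucose and lactate and genes of pyruvate use, on the right for the hypoxia-inducible factors, their oxygen sensors and targets; red is higher and blue lower in LECs, and gray did not pass. The carriers, Pdk1 and Pdk3 lie below 0 and Pdha1, Dlat and Pdp1 above 0 (left), and Hif1a (-1.20) and Epas1 (-2.94) lie below 0 while Egln3 (2.14) lies above 0 (right).

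Hif1a and Epas1 encode the oxygen-regulated alpha subunits HIF-1 alpha and HIF-2 alpha; the latter was first cloned from endothelial cells. Both were lower in LECs. Epas1 had 8.31, 8.29 and 8.17 in VECs and 5.41, 5.27 and 5.27 in LECs, 7.68-fold lower (-2.94, SE 0.075, adjusted p = 1.4e-06), the largest difference among the 31 genes. Hif1a had 3.48, 3.55 and 3.46 in VECs and 2.27, 2.32 and 2.30 in LECs, 2.30-fold lower (-1.20, SE 0.059, adjusted p = 1.5e-05). The gaps between the populations were many times the spread within them for both genes. The log2 ratio of Hif1a to Epas1 was -4.83, -4.74 and -4.72 in VECs and -3.14, -2.95 and -2.97 in LECs, so Epas1 differed more than Hif1a by 1.74 on the log2 scale (exact permutation p = 0.1, adjusted p = 0.133). All 5 pan-endothelial genes were lower in LECs too, from Erg (-0.48) to Tek (-1.45, 2.73-fold), which is less than for Epas1 and spans the value of Hif1a. Of all named genes, 32.0% passed as lower. Without scaling between arrays Erg did not pass (-0.26, adjusted p = 0.15). Both subunits are controlled mainly through their breakdown as proteins, which these arrays do not measure.

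Of 8 partners and oxygen sensors of these factors, 7 were compared, and 4 were higher and 1 lower in LECs, a share of 71.4% against 66.9% of all named genes. Egln3, an oxygen-sensing prolyl hydroxylase that HIF itself induces, had -1.38, -1.26 and -1.40 in VECs and 1.0, 0.59 and 0.79 in LECs, 4.42-fold higher (2.14, SE 0.12, adjusted p = 2.3e-05). Arnt, the constant partner of both subunits, was 1.29-fold higher (0.36, SE 0.061, adjusted p = 0.0028) but showed 0.03 as the mean of its compared probes, and Vhl, which marks them for breakdown, was 1.54-fold lower (-0.63, SE 0.063, adjusted p = 0.00031). Hif3a, the third alpha subunit, passed (2.08, adjusted p = 0.044) with LEC arrays spread from -3.60 to -0.79 and 1 of 3 VEC arrays well above background, and it passed under 10 of 18 alternatives, with differences from 0.82 with the slide row as a blocking factor to 2.71 without LEC 6. Of 12 HIF target genes outside glycolysis, 5 passed as lower and 2 as higher in LECs, with a median of -0.22. The share that passed was 58.3%, against 66.9% of all named genes. Ankrd37 was 6.99-fold lower (-2.81, SE 0.16, adjusted p = 2.6e-05) and P4ha2, a collagen prolyl hydroxylase, 5.74-fold lower (-2.52, SE 0.41, adjusted p = 0.0025; -3.25 with the slide row as a blocking factor), whereas Ndrg1 was 2.11-fold higher (1.08, SE 0.089, adjusted p = 0.00013). Without scaling between arrays these counts were 2 lower and 3 higher, so the list had no direction that held under every scaling.

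The promoters of the genes were searched for the core letters of the hypoxia response element, because many glycolytic genes are known targets of these factors. The search looked for ACGTG or GCGTG on either strand (thus also CACGT and CACGC) in the 250 bases before each RefSeq transcription start of GRCm38.p6. ACGTG overlaps the E-box CACGTG, to which MYC and USF proteins bind, so that a match does not tell these apart. Promoters of 34 of the 35 genes were in the table, and Epas1 was not. At least 1 start with these letters was found for 26 of the 30 compared genes with a promoter, 86.7%, against 56.8% of 11846 compared named genes. By window, the shares were 73.5% of 49 and 51.7% of 14939, and 38.6% of all 32851 windows. The letters were found for 15 of 15 genes lower in LECs, 4 of 5 higher and 7 of 10 that did not pass. These are descriptions with no test, and base composition was not matched. Printed as examples are the windows of Ldha, Pdk1 and Pdk3, all lower in LECs, and of Aldoc, which had the largest excess. Each is read 5′ to 3′ on the strand of the gene, with the matched letters in capitals.
Ldha promoter, chr7:46845554-46845803, plus strand, GRCm38.p6 (RefSeq): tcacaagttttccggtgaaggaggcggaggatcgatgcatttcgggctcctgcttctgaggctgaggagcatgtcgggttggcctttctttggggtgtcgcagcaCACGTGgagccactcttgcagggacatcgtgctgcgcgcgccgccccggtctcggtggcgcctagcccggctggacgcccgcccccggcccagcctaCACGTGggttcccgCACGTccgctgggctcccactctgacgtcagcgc
Pdk1 promoter, chr2:71872974-71873223, plus strand, GRCm38.p6 (RefSeq): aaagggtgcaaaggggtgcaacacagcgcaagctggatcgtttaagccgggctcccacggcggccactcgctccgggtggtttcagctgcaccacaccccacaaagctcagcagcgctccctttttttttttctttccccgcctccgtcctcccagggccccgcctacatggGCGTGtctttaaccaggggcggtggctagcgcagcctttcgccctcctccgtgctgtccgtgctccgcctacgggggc
Pdk3 promoter, chrX:93832151-93832400, minus strand, GRCm38.p6 (RefSeq): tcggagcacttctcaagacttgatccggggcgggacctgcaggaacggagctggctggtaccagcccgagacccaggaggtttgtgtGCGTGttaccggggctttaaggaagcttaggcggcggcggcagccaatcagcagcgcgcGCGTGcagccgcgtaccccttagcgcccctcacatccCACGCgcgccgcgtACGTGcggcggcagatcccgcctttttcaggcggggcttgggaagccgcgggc
Aldoc promoter, chr11:78322823-78323072, plus strand, GRCm38.p6 (RefSeq): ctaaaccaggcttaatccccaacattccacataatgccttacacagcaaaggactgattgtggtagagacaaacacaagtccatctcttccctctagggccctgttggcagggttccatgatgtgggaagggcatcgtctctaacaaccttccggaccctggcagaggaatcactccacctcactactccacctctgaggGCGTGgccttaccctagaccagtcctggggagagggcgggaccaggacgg
In the windows printed, Ldha held 3 separate stretches of the searched letters, 2 of them the full E-box, Pdk3 held 4, and Pdk1 and Aldoc held 1 each. Ldha, Pdk1 and Aldoc each have a second RefSeq start, and those windows held 1, 0 and 1 stretches. Pfkl (-1.49), Hif1a (-1.20) and Eno3 (-1.13), not printed, had larger deficits than Pdk1 (-0.92), and their windows held 1, 2 and 1 stretches. Among the genes higher in LECs, windows held from 0 stretches (Eno2) to 3 (Pdha1).

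The branches that leave glycolysis differed gene by gene, and the counts of their lists stand beside the same background of 34.9% higher and 32.0% lower. In the pentose phosphate pathway, 3 genes passed as higher and 4 as lower in LECs, of 8. H6pd, the glucose 6-phosphate dehydrogenase of the endoplasmic reticulum, had -0.18 on all 3 VEC arrays and 3.90, 3.83 and 3.94 in LECs, 16.8-fold higher (4.07, SE 0.060, adjusted p = 4.9e-07). Its cytosolic counterpart G6pdx was 1.17-fold lower (-0.22, SE 0.058, adjusted p = 0.016), showed a difference of 0.00 without scaling between arrays and did not pass without VEC 3 or LEC 8. Tkt, the transketolase, was 1.48-fold higher (0.56, adjusted p = 0.0023), and Rpia, an isomerase of ribose phosphate, was 1.46-fold lower (-0.55, adjusted p = 0.00096). Without scaling between arrays, 1 gene of this list was lower in LECs and not 4.

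Among 7 genes of serine synthesis, the hexosamine branch and the glycerol phosphate branch, 3 were higher and 3 lower. Gfpt2, a form of the enzyme that starts hexosamine synthesis, had -2.88, -2.88 and -2.99 in VECs and 0.23, 0.86 and 0.66 in LECs, 11.3-fold higher (3.50, SE 0.16, adjusted p = 1.3e-05; 2.44 with normexp). Phgdh, which draws 3-phosphoglycerate into serine synthesis, was 2.96-fold higher (1.56, SE 0.27, adjusted p = 0.0030), and Psat1, the next enzyme, 2.34-fold higher (1.22, SE 0.10, adjusted p = 0.00013). Psph, the last enzyme of that route, was 1.42-fold lower (-0.50, adjusted p = 0.00058), but did not pass without scaling between arrays (adjusted p = 0.076). Both glycerol 3-phosphate dehydrogenases, Gpd1 of the cytosol and Gpd2 of mitochondria, were lower, by 2.24-fold (-1.16) and 2.36-fold (-1.24). The serine route thus held genes on either side.

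Gluconeogenesis runs the pathway backward. Its dedicated fructose bisphosphatases, Fbp1 and Fbp2, were not well above background on any array. Of the 5 other genes, 4 were compared. Pcx, the mitochondrial pyruvate carboxylase, had 2.92, 2.93 and 2.80 in VECs and -0.84, -1.04 and -0.99 in LECs, 14.3-fold lower (-3.84, SE 0.081, adjusted p = 7.7e-07). Pck2, the mitochondrial phosphoenolpyruvate carboxykinase, was 3.55-fold lower (-1.83, SE 0.087, adjusted p = 1.3e-05), and G6pc3, a widely expressed glucose 6-phosphatase, 1.47-fold higher (0.56, SE 0.080, adjusted p = 0.0014). G6pc, the liver glucose 6-phosphatase, did not pass (-0.23). Pcx and Pdha1, whose enzymes use the same substrate, thus differed in opposite directions.

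Glycogen stores glucose beside the pathway, and of 12 compared genes of glycogen metabolism 5 were higher and 3 lower, with a median of 0.10. Gbe1, the branching enzyme, was 2.13-fold higher (1.09, SE 0.10, adjusted p = 0.00024). Pygl, the liver phosphorylase that releases glucose units, was 2.89-fold lower (-1.53, SE 0.14, adjusted p = 0.00017; -0.80 with normexp), and Gys1, the synthase, 1.42-fold lower (-0.51, adjusted p = 0.0071), though not without scaling between arrays (adjusted p = 0.11). Of 11 further glycolytic isozymes and relatives, 5 were compared. Bpgm, which makes 2,3-bisphosphoglycerate and is abundant in red cells, was 1.91-fold lower (-0.93, SE 0.12, adjusted p = 0.0010). The erythroid gene Hba-a1 moved the same way, 23.8-fold lower in LECs (-4.57, and -3.95 without LEC 8), and its part in the Bpgm result was not tested.

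**Figure D4:**
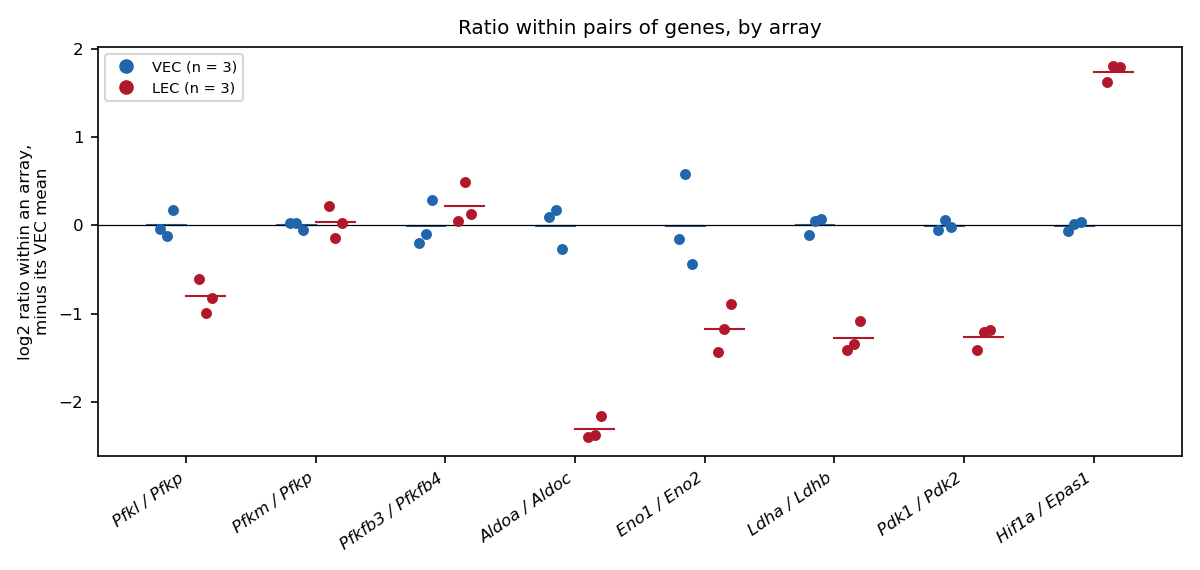
Log2 ratio within each array of the signals of 8 pairs of genes with the same or opposed role, on the 3 VEC and 3 LEC arrays, each pair shown as its deviation from the mean of the VEC arrays (blue VEC, red LEC; each point is 1 array and each short line a mean). The ratios of Aldoa to Aldoc, Ldha to Ldhb, Pdk1 to Pdk2, Eno1 to Eno2 and Pfkl to Pfkp lie lower on every LEC array. That of Hif1a to Epas1 lies higher on every LEC array, and those of Pfkm to Pfkp and Pfkfb3 to Pfkfb4 overlap. Eno2 was near background, with 2 of 3 VEC arrays well above it.

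Ratios within an array do not depend on the scaling between arrays. Of the 8 pairs, 6 did not overlap between the populations. Each of these had p = 0.1 in the exact two-sided permutation test, the smallest possible, and an adjusted p of 0.133. The share among other pairs of genes was not computed. Of single named genes, 35.9% had every VEC array higher and 39.1% every LEC array higher. Among the 6, the ratio of Eno1 to Eno2 rests on Eno2 signals near background. No pair could pass a threshold of 0.05 in this design. The ratio of Hk1 to Hk2 was not computed, because Hk2 was not compared.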

How the data were processed

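RNA of sorted VECs and LECs of mouse small intestine was labeled with Cy3 and hybridized to Agilent mouse arrays. The deposited scanner files hold, per the file headers, the intensity of each spot after background subtraction by Agilent Feature Extraction 12.0.3.1, and the authors did not scale these values between arrays. A further deposited table holds log2 values that differ from the log2 of these intensities by 1 constant per array in at least 99.9% of probes (within 0.01), with medians of -3.19 to -3.13 and genes not centered, and served as an alternative. The methods name Gene Spring GX and an analysis of variance without settings, run here as a one-way test of both populations.

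Here spots that the scanner software marked as outliers (97 to 122 per array) were set missing, spots of a probe were averaged, and each array's 75th percentile was subtracted from its log2 values. Comparisons used lmFit and eBayes of limma 3.58.1 under R 4.3.3, two-sided, with Benjamini-Hochberg adjustment over 33776 probes. For each gene the brightest compared probe, by its mean on all 6 arrays, is reported. RefSeq accessions of GRCm38.p6 named 58.3% of the probes. A fold given as at least a value sets the brighter mean against the lowest signal well above background, 12.1 to 25.1 intensity units per array, or the probe's own where higher. The number of arrays, 3 per population, limits the precision. Every gene of the pathway is named, with up to 3 genes per direction from each other list, or all of a list of at most 8, and examples from the marker lists. The genes and the lists were chosen with earlier results of these data known. The fit was tested on simulated data.

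The alternatives were other background corrections, scalings, filters, tests and inputs, the slide row as a blocking factor and each sample left out. The PCR, ELISA, flow cytometry, imaging and transplantation experiments were not analysed here. Results for items withheld for evaluation are not reported here.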

Additional observations from a re-analysis of the deposited data

How the results depend on the processing

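Over 19 alternatives, 12 of the 16 genes lower in LECs and 2 of the 5 higher passed every time. Of the genes of the pathway, 5 were higher in LECs. The number was 2 with no filter on dim probes and 3 with a one-way analysis of variance in place of limma. With 1 sample left out it was 2 (without VEC 3) to 4, and 3 without VEC 2 or LEC 8. The number lower was 13 to 16 with 1 sample left out. Without scaling between arrays the median of all compared probes moved from -0.03 to 0.20, and 6916 instead of 11066 probes and 14 instead of 24 genes of the other pathway lists were lower in LECs. In that setting the counts for the pathway were 7 higher and 12 lower; Eno1 (adjusted p = 0.69), Ldhb (0.35), Pkm (0.12) and Pfkfb3 (0.057) lost their call, and the differences of Gpi1 (0.09), Pgk1 (0.07) and Pdk4 (0.11), which did not pass in the main comparison, changed sign. So did Gpi1 with quantile normalization (0.02), and Pfkfb1 (-0.07) and Aldoa (-0.00) without VEC 4. The ratio of Pfkfb3 to Pfkfb4 was -0.05 with normexp background correction, and that of Pfkm to Pfkp -0.06 without LEC 6. The causes were not tested. The normexp correction used the median spot signals, because the mean signals were not among the columns used here. No paired analysis was possible because the samples of the populations share no replicate number. Near background, as for Eno2 and Hk2, the signal limits what can be told.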
